A study of Mus musculus with 80 samples.

Results

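This comparison set hematopoietic stem cells (HSC) against hematopoietic progenitor cells (HPC) of wild type mice on the day of birth, P0. Its members were chosen by title: the 5 libraries titled P0 wild type HSC and the 4 titled P0 wild type HPC, which are 9 of the 80 libraries of the series. The series measured RNA of HSC and HPC by RNA-seq at several ages and genotypes, all in mice of the B6 background. Both groups of this comparison were wild type, untreated and of the same age, and the values were raw read counts from the second of the 2 deposited tables. Libraries at P0 labelled Ifnar -/- (4 HSC and 4 HPC) came from the same table. An age series of untreated B6 mice (4 HSC and 4 HPC libraries at P0) came from the first table. HPC at P14 (day 14) were used only to compare the tables, as 4 Ifnar +/-, Flt3 +/+ libraries of the second and 5 of the age series in the first. The labels gave no sort markers and no organ, and did not say whether animals were pooled. Where nothing says that libraries came from separate animals, p-values measure only the spread between these samples, which may be technical.

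HSC are the rare cells from which all blood lineages are renewed, and HPC are their faster dividing offspring that can no longer sustain blood for life. In the mouse the 2 states are usually separated by SLAM receptors: HSC carry Slamf1 (CD150) and lack Cd48, while most progenitors carry Cd48. Around birth blood formation moves from the liver to the bone marrow and stem cells begin to leave the fast cycling of fetal life.

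All 5 HSC libraries came from the run with prefix s4776 and all 4 HPC libraries from the run with prefix s4545, so cell type and run cannot be told apart within these 9 libraries. HSC libraries held 37.039 to 46.229 M reads and HPC libraries 12.862 to 14.72 M reads. Processed pseudogenes took 1.48 to 1.61% of HSC reads and 0.286 to 0.335% of HPC reads, and mitochondrially encoded genes took 1.09 to 1.43% and 2.25 to 3.92%. The first principal component, with 76.3% of the variance, separated the cell types. HSC libraries 4 and 5 stood apart from HSC libraries 1 to 3 on the second component, at -49.32 and -19.98 against 19.58 to 26.09. Every HSC library held both Xist and Y-linked RNA, whereas HPC libraries 1 and 3 held no Xist reads, HPC library 4 held no Y-linked reads and HPC library 2 held them at 0.0777 CPM (read counts scaled to a common library total).

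Genes used to define stem cells were higher in HSC and genes of committed progenitors were lower, in the direction the labels imply. Slamf1 CPM were 74.9, 54.3, 70.7, 47.2 and 62.6 in HSC and 6.63, 11.1, 11.9 and 10.8 in HPC. The lowest HSC library was thus above the highest HPC library, and Slamf1 was higher in HSC by 2.61 ± 0.20 on the log2 scale (fitted value ± SE, adjusted p = 2.04e-07). Cd48 ran the other way, with CPM of 6.57, 5.62, 6.46, 7.27 and 8.82 in HSC and 431, 432, 417 and 346 in HPC. Its fold change was -5.87 ± 0.15 (adjusted p = 5.66e-12). Procr, the endothelial protein C receptor and a stem cell marker, averaged 135 ± 16.2 CPM (SD, n = 5) in HSC and 27.4 ± 4.63 (SD, n = 4) in HPC. Mecom, a transcription factor required for stem cell maintenance, averaged 267 ± 27.9 and 40.4 ± 4.97 CPM in the same order. Neither gene's groups overlapped.

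Other genes of the usual sort separated the cells less. Kit, the stem cell factor receptor, had CPM of 812 to 1180 in HSC and 433 to 772 in HPC and was higher in HSC by 0.91 ± 0.18 (adjusted p = 0.000712), while the age series gave -0.45 ± 0.19 (adjusted p = 0.0757). Ly6a (Sca-1) overlapped, at 73.3 to 197 CPM in HSC and 134 to 225 in HPC, and its fold change of -0.51 ± 0.26 did not pass the test (adjusted p = 0.111). Within HSC, Ly6a was at 73.3 to 106 CPM in libraries 1 to 3 and at 173 and 197 in libraries 4 and 5, and without those 2 libraries it was called lower in HSC (adjusted p = 0.000268). Flt3, the receptor that marks multipotent progenitors, was lower in HSC at 313, 335, 331, 164 and 347 CPM against 484, 641, 528 and 958 (fold change -1.13 ± 0.23, adjusted p = 0.000954). Hlf, a stem cell transcription factor, differed by 0.30 ± 0.09 (adjusted p = 0.0168), with 344 to 408 CPM in HSC and 280 to 326 in HPC. The call was lost without any one of HSC libraries 1, 2 and 3 and HPC libraries 3 and 4 (adjusted p of 0.0503 to 0.0563), while the age series gave 1.10 ± 0.13.

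**Figure D1:**
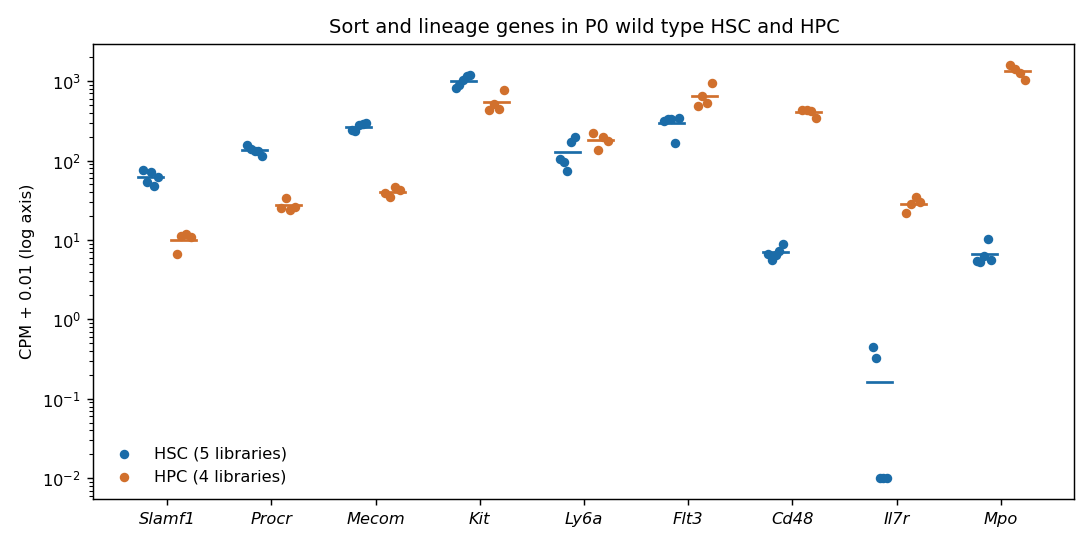
CPM per library on a log axis, after adding 0.01, for 9 sort and lineage genes in P0 wild type HSC (blue, 5 libraries) and HPC (orange, 4 libraries), with a line at each mean. Slamf1, Procr, Mecom and Kit were higher in every HSC library than in any HPC library, Flt3, Cd48, Il7r and Mpo were lower, and Ly6a overlapped.

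Over all genes, 4796 of 16053 tested (29.9%) were called higher in HSC and 4221 (26.3%) lower at an adjusted p under 0.05, together 56.2%. The groups did not overlap for 47.1% of the genes tested, and the median log2 fold change of all genes was 0.06. A list of genes is therefore read below against these shares. In bulk samples fewer cells of a type and less RNA per cell cannot be told apart.

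Genes were ranked by called fold change only where groups did not overlap and mean log2 CPM reached 3. Pseudogenes and predicted genes were among those left out. In this ranking the largest differences in favor of HSC were not found in the age series. The genes with the largest called fold changes included Ppp1ca, Actg1, Rps6, Rps27, Rps29, Rps13, Rpl9, Rps12 and Rpl19, mostly ribosomal protein genes, many of which have processed pseudogenes of near-identical sequence. Rps6 was at 3180, 3170, 2940, 3500 and 3020 CPM in HSC and at 4.24, 4.3, 5.03 and 2.24 in HPC. Ppp1ca, a catalytic subunit of protein phosphatase 1, was at 494 to 772 CPM in HSC and listed at 0 in all 4 HPC libraries, at least 11000-fold higher against a floor of 3 reads over the HPC group. In the age series Rps6 was at 3.33 ± 0.556 CPM (SD, n = 4) in HSC, and Ppp1ca was listed at 0 in HSC and HPC alike. HPC at P14 held Rps6 at 3880 ± 1480 CPM (SD, n = 4) in the second table and at 18.1 ± 12.9 (SD, n = 5) in the first. The P14 HPC libraries of the second table carry a run prefix (s4788) of the same MGI form as the P0 HSC libraries, which the P0 HPC libraries do not. How each run was counted is not given in the sources used here.

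The P14 libraries hold no P0 cells, so they gave a measure of this difference that the comparison itself had not used. Between the tables at P14, 2677 of 16268 genes were over 1 log2 unit higher in the second table and 995 over 1 unit lower, with 1229 of 1574 processed pseudogenes among the former. Across 10044 genes, the P14 table difference and the P0 HSC table difference (second minus first) had a Pearson correlation of 0.751 and a Spearman correlation of 0.274. Against the P0 HPC table difference the values were -0.023 and -0.004. These are descriptions across genes, which are not independent, and the points share their annotation. Of the genes with a P14 table difference over 1 in either direction, 73.6% were called in the HSC against HPC comparison, against 51.9% of the other genes. The P14 groups also differ in genotype label, and the part of genotype in a gene's table difference was not tested.

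**Figure D2:**
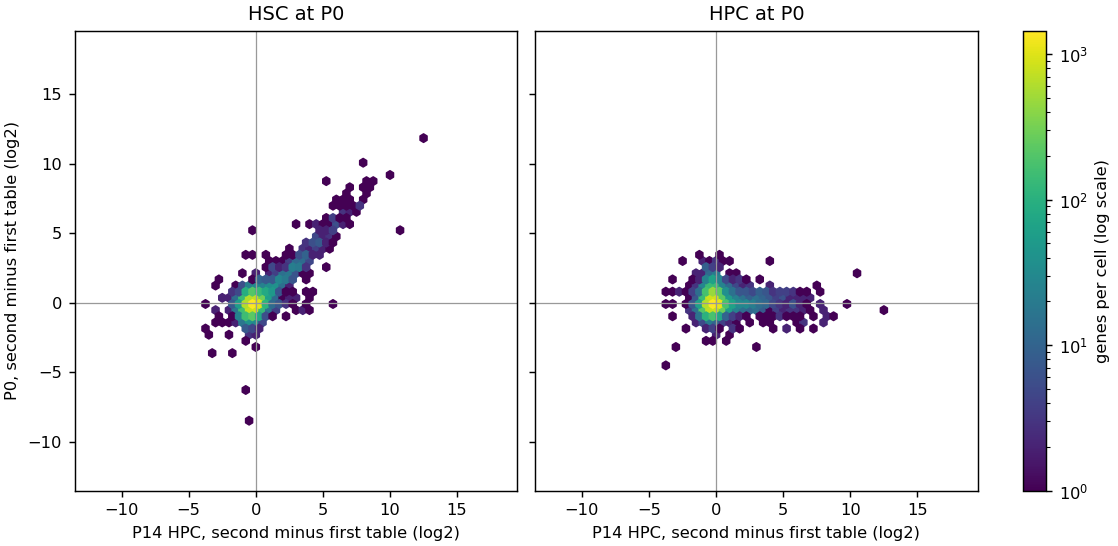
Each cell counts genes (color, log scale) by the log2 difference between the second and the first table in P14 HPC (x axis) and in P0 HSC (left) or P0 HPC (right). Genes lie along a rising band for P0 HSC (Pearson 0.751) and stay near 0 for P0 HPC (Pearson -0.023) over 10044 genes.

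The age series gave the same contrast in other libraries, with both cell types in 1 table, where Rps6 was low in both. There, limma called 2377 of 11453 genes (20.8%) higher in HSC and 2335 (20.4%) lower, together 41.1%. Without TMM factors 60.7% of these calls were higher, against 50.4% with them. Of 11256 genes tested in both wild type comparisons, 1096 (9.74%) were called higher in HSC in both, 1236 (11%) lower in both, and 720 (6.4%) in opposite directions. Of these 11256 genes, 58.1% were called in the second table and 41.4% in the age series. In the Ifnar -/- libraries, which share the 2 runs, 3606 of 14989 genes (24.1%) were higher in HSC and 3317 (22.1%) lower, together 46.2%. The main gene lists below are given with their age series counts and with the number of their genes that had a P14 table difference over 1.

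**Figure D3:**
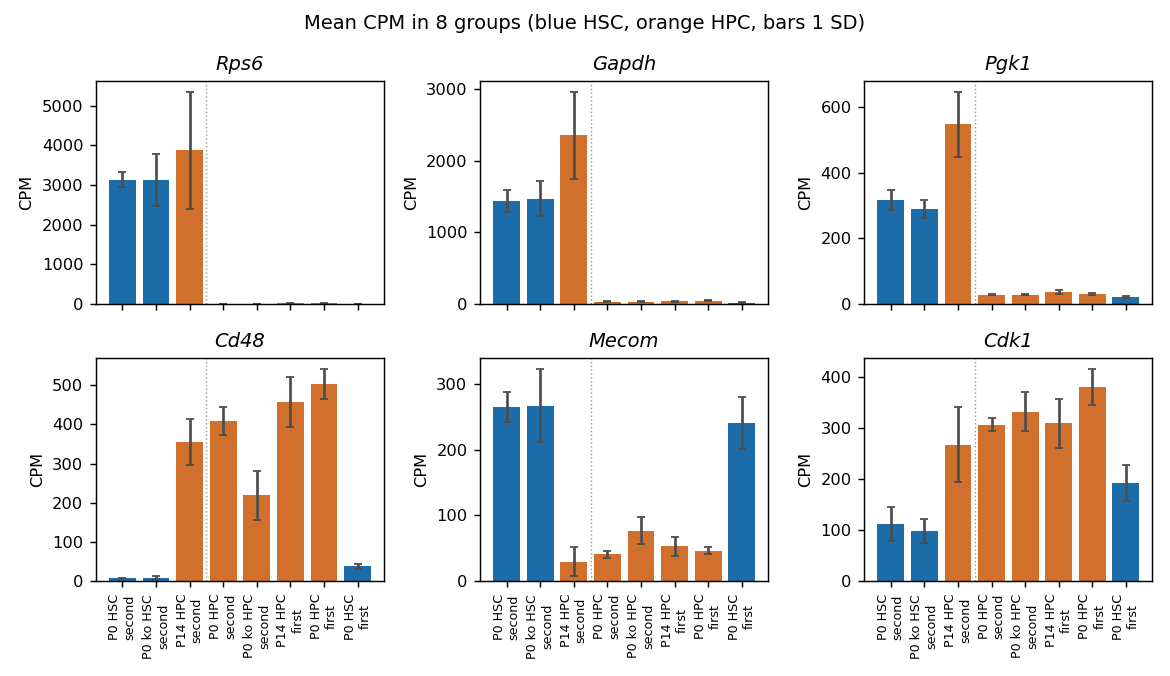
Mean CPM with bars of 1 SD in 8 groups for 6 genes, with HSC in blue and HPC in orange, a dotted line separating the 3 groups of the MGI runs from the others. Rps6, Gapdh and Pgk1 were high in the MGI runs of both cell types (Gapdh 1440 in P0 HSC and 2350 in P14 HPC) and low elsewhere, while Cd48, Mecom and Cdk1 differed between HSC and HPC.

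Stem cell surface genes were mostly higher. Of 25 genes of HSC surface and junctions tested, 18 were higher, 1 was lower and the median was 1.48, and 16 of 24 were also called higher in the age series. Ctnnal1 (alpha-catulin), which marks HSC in reporter mice, had CPM of 197, 207, 213, 197 and 202 in HSC against 20.8, 18.9, 19.8 and 24.8 in HPC. The HSC libraries differed among themselves by far less than they did from HPC, and the fold change was 3.27 ± 0.11, with 2.57 ± 0.20 in the age series. Esam and Tie1, which stem cells share with endothelium, were higher by 2.47 ± 0.10 and 2.56 ± 0.11. Pdzk1ip1, a small membrane protein enriched in HSC, was higher by 2.65 ± 0.12. Vwf, the clotting factor that also marks platelet-biased HSC, stood at 101, 85.1, 110, 157 and 115 CPM against 6.17, 7.68, 5.48 and 4.08. A P14 table difference over 1 was found for 5 of the 25 genes, Slamf1 (2.78) and Esam (1.53) among them, but both were higher in HSC of the age series, by 2.46 ± 0.22 and 2.59 ± 0.12.

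Among 22 HSC transcription factors, 11 were higher and 2 lower (median 0.38), and 11 of 19 were called higher in both wild type comparisons. In the Ifnar -/- libraries the list was divided, with 6 of 21 higher and 5 lower (median -0.065). Of 21 measured at P14, 1 had a table difference over 1. Mllt3, a regulator of stem cell self-renewal, had CPM of 394 to 467 in HSC and 64.9 to 77.9 in HPC, a fold change of 2.62 ± 0.11 (age series 3.18 ± 0.15). Hoxb5, a homeobox gene used to mark long-term HSC, was at 11.3 to 15.3 CPM in HSC and under 1 CPM in each HPC library (0.386 to 0.962). Meis1 (1.34 ± 0.09) and Prdm16 (1.38 ± 0.15) were higher by smaller amounts, and every HSC library was above every HPC library for both. Jam3, a junction molecule listed with the homing genes, was higher by 1.38 ± 0.12.

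Imprinted genes of fetal growth were also higher. Of 14 tested, 11 were higher and 0 lower (median 1.34), and 7 of 8 were called higher in both wild type comparisons, although 6 of 14 had a P14 table difference over 1. With that difference subtracted, 6 of 14 were higher and 0 lower. H19, a maternally expressed noncoding RNA, had CPM of 82.3, 72.4, 70.8, 90.7 and 68.7 in HSC and 13.4, 8.38, 16.3 and 16 in HPC. Igf2, its paternally expressed neighbor and a growth factor, was at 39.6 to 65.1 CPM in HSC and 0.768 to 4.68 in HPC. Their fold changes of 2.51 ± 0.19 and 4.58 ± 0.39 stood beside 3.65 ± 0.27 and 3.32 ± 0.22 in the age series. Grb10, an inhibitor of growth factor signaling, was at 199 to 248 CPM in HSC libraries 1 to 3, at 504 and 355 in libraries 4 and 5, and at 43.3 to 58.9 in HPC. Cdkn1c, a CDK inhibitor linked to stem cell quiescence, was at 17.7 to 24.5 CPM against 8.1 to 16 and was higher by 0.72 ± 0.19 (adjusted p = 0.00614). Dlk1 was at 10.7 to 17.9 CPM in HSC and listed at 0 in every HPC library, but it was also listed at 0 in all 4 HSC libraries of the age series, and its P14 table difference was 5.33. Meg3 averaged 17.2 CPM in HSC and was listed at 0 in HPC, with 0.182 CPM in HSC of the age series. Dlk1 and Meg3 passed the filter on low counts through HSC alone and could only be called higher. The counts are no test of direction for them.

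The fetal Lin28b axis went both ways, with 3 of 7 genes higher and 4 lower. In the age series 3 of 7 were higher and 1 lower, and 2 of 8 had a P14 table difference over 1. Igf2bp3, an RNA-binding protein induced by Lin28b, was lower in HSC, at 32.7 to 35.7 CPM against 216 to 237, a fold change of -2.73 ± 0.09. Its relative Igf2bp2 was higher, by 0.89 ± 0.12. Hmga2, a chromatin protein of fetal HSC, had a fold change of -0.81 ± 0.09 in this comparison and of 0.13 ± 0.12 in the age series, where it did not pass the test. Hmga1 was higher by 1.13 ± 0.11, with a P14 table difference of 2.23.

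Lymphoid genes were lower in HSC almost throughout. Of 25 genes of lymphoid priming and early B cells tested, 24 were lower and 0 higher, with a median of -3.08, and 13 of 19 were called lower in both wild type comparisons. Of the 25, 1 had a P14 table difference over 1. Ccr9, the chemokine receptor of thymus-seeding progenitors, had CPM of 0.49, 1.15, 0.234, 0.608 and 0.626 in HSC and 87.1, 125, 104 and 119 in HPC (fold change -7.47 ± 0.31, age series -4.94 ± 0.19). Il7r, the interleukin 7 receptor, was listed at 0 in HSC libraries 3, 4 and 5, at 0.445 and 0.312 CPM in libraries 1 and 2, and at 21.7 to 34.3 CPM in HPC. Rag2, which with Rag1 cuts antigen receptor genes, had 8 reads in all HSC libraries together and 15 to 21.8 CPM in HPC. Listed genes as low in HSC as Rag2 passed the filter on low counts through HPC alone and could only be called lower. The counts are no test of direction for such genes, and the median may be partly set by the filter. Satb1, a chromatin organizer of lymphoid progenitors, had a fold change of -2.70 ± 0.15, Il12a one of -2.72 ± 0.21 and Cd52, a surface glycoprotein of lymphocytes, one of -3.76 ± 0.17. B cell markers were among these genes. The 6 B cell markers summed to 148 to 162 CPM in HSC and 177 to 249 in HPC, and Ebf1, the factor that commits cells to the B lineage, was at 0.0213 to 0.997 CPM in HSC and 15.3 to 24.1 in HPC. The part of B lineage cells in the lymphoid difference was not tested.

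Myeloid granule genes were lower as well, Mpo among them. Of 15 primary granule genes, 12 were lower and 1 higher (median -2.16), and 9 were called lower in both wild type comparisons. Of the 15, 1 had a P14 table difference over 1. Mpo, the peroxidase of neutrophil granules, was at 5.5, 5.21, 6.23, 10.4 and 5.57 CPM in HSC and at 1610, 1420, 1270 and 1020 in HPC, a fold change of -7.66 ± 0.25 (age series -5.31 ± 0.67). HSC library 4 was the highest of its group and still far below every HPC library. Cst7 (cystatin F, -8.04 ± 0.35), the granule protein Nkg7 (-4.06 ± 0.24) and the protease inhibitor Serpinb1a (-3.81 ± 0.23) were lower too, and the groups did not overlap for any of them. Ctsg (cathepsin G) was listed at 0 in all HSC libraries. It passed the filter on low counts through HPC alone and could only be called lower, so the counts are no test of direction for such genes. The 15 genes summed to 1420 to 1690 CPM in HSC and 4210 to 5880 in HPC.

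Myeloid transcription factors were divided, with 3 of 11 higher and 5 lower. In the age series 3 of 8 were higher and 2 lower, and 2 of 12 had a P14 table difference over 1. Cebpa, which drives granulocyte and macrophage fate, was at 0 to 0.156 CPM in HSC and at 10.3, 7.07, 6.96 and 5.01 in HPC (fold change -6.54 ± 0.51). Irf8, a factor of monocytes and dendritic cells, was called lower here (-2.36 ± 0.17), but its age series value of -0.43 ± 0.21 did not pass the test (adjusted p = 0.127). Gfi1, a repressor active in both HSC and granulocyte precursors, was higher, at 18 to 35.9 CPM in HSC and 6.4 to 12.5 in HPC. Csf1r, the macrophage colony stimulating factor receptor, was lower at 2.38 to 7.72 CPM against 73.2 to 92.4.

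Genes of mast cells, basophils and eosinophils set the HPC libraries apart from each other. The 15 genes summed to 59.5 to 67.9 CPM in the HSC libraries and to 805, 135, 979 and 5090 CPM in HPC libraries 1 to 4. Cma1 (mast cell chymase) was at 172, 20.7, 222 and 1060 CPM in HPC and listed at 0 in all HSC libraries, at least 26500-fold lower against a floor of 3 reads over the HSC group. Tpsb2 (a mast cell tryptase) was at 404, 31.7, 507 and 2820 CPM in HPC and had 1 read in HSC, or 0.00464 CPM with an exact 95% counting interval of 0.000117 to 0.0258. Cpa3 (mast cell carboxypeptidase) followed the same order in HPC, at 122, 32.9, 151 and 577 CPM. Of 10 list genes tested, 7 were lower in HSC and 1 was higher, and the counts were the same without HPC library 4. Of the 15, 6 had 0 reads in every HSC library, and any of them tested passed the filter on low counts through HPC alone. Such genes could only be called lower, so the counts are no test of direction for them. In the age series 11 of 12 were lower and 1 was higher. A P14 table difference over 1 was found for 12 of the 15 genes, and of the list genes within 1 log2 unit at P14 only 2 were tested, with 1 higher and 1 lower. The gene that was higher was Gata3 (1.29 ± 0.12), a transcription factor that HSC also express.

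Erythroid and megakaryocyte genes went both ways. Among 16 erythroid genes, 3 were higher and 7 lower, whereas in the age series 7 of 12 were higher and 2 lower. A P14 table difference over 1 was found for 7 of 18, and 3 genes were called higher in both wild type comparisons, 2 lower in both and 1 in opposite directions. Gata1, the master factor of red cells and platelets, was lower at 3.43 to 8.25 CPM against 16 to 31.8. Car1, an erythroid carbonic anhydrase, had 12 reads in all HSC libraries and 14 to 35 CPM in HPC. Tfr2, an iron-sensing receptor, was higher at 175 to 192 CPM against 40.4 to 59.8, and so was Epor, the erythropoietin receptor, at 17.2 to 19.9 against 4.89 to 7.02. With the P14 table difference subtracted, the fold change of Epor was -0.16, though the age series gave 3.16 ± 0.20. Of 18 megakaryocyte genes, 7 were higher, Vwf among them, and 4 were lower. In the age series 8 of 15 were higher and 1 lower, and 6 of 18 had a P14 table difference over 1. Plek, a platelet kinase substrate also found in leukocytes, was lower at 8.66 to 26 CPM against 173 to 289.

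SLAM receptors other than Slamf1 were mostly lower. Of 8 tested, 2 were higher and 5 lower, with 1 of 6 higher and 4 lower in the age series and a P14 table difference over 1 for 2 of 9. Cd244a, the receptor that binds Cd48, was at 0 to 2.66 CPM in HSC and 26.3 to 43.4 in HPC, and Slamf6 was at 0.668 to 1.83 against 6.26 to 12.1. Both were also lower in the age series (-2.78 ± 0.27 and -2.17 ± 0.43). Of 24 cytokine receptors, 6 were higher and 12 lower, and in the age series 7 of 23 were higher and 9 lower. Of the 24, 4 had a P14 table difference over 1. Ifnar1 and Ifnar2, the chains of the type I interferon receptor, differed from each other. Ifnar1 had 54.8 to 69.7 CPM in HSC and 53.6 to 77 in HPC and did not pass the test (0.07 ± 0.14, adjusted p = 0.698). Ifnar2 was lower, with a fold change of -1.16 ± 0.17 and was called higher in the age series (0.81 ± 0.17), so its direction was not the same in the 2 tables.

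Cell division genes were lower in HSC, with a split inside the HSC group. Of 26 DNA replication genes, 23 were lower and 1 higher (median -0.99), and 18 were called lower in both wild type comparisons. Of 22 G2/M genes, 16 were lower and 0 higher (median -1.04), and 15 were called lower in both. In each list 1 gene had a P14 table difference over 1. With the P14 table difference subtracted, 13 of 26 replication genes and 8 of 22 G2/M genes were lower, and 0 of either list were higher. Summed over the list, G2/M genes were at 1160, 1340, 1280, 2970 and 3400 CPM in HSC libraries 1 to 5 and at 3740, 4360, 3740 and 4310 in HPC. Replication genes summed to 2910, 3090, 2940, 5710 and 4620 CPM in HSC and 6180 to 7660 in HPC. HSC libraries 4 and 5 thus lay between HSC libraries 1 to 3 and the HPC libraries. Without libraries 4 and 5, 21 G2/M genes were lower (median -1.55) and 24 replication genes were lower (median -1.40).

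Not every gene of the lists had this order among HSC libraries. Cenpe was at 32.6, 30.7, 33.1, 20 and 58.4 CPM and Mki67 at 41.6, 45.4, 50.7, 24.9 and 65, each lowest in library 4. Cdk1, the kinase that starts mitosis, was at 74.8, 107, 75.9, 156 and 160 CPM in HSC and 301, 317, 317 and 285 in HPC, a fold change of -1.41 ± 0.22. Tipin, a replication fork protein, and Rfc4, of the clamp loader, were lower, with fold changes of -1.30 ± 0.10 and -1.54 ± 0.25, with -0.93 ± 0.10 and -0.93 ± 0.11 in the age series. Cenpe, a spindle motor, and Aurkb, a mitotic kinase, were lower, with fold changes of -1.35 ± 0.27 and -1.06 ± 0.23. Cdc20, which triggers chromosome separation, and Mcm6, a subunit of the replicative helicase, were called lower here (-1.60 ± 0.21 and -1.35 ± 0.17) but did not pass the test in the age series (-0.33 ± 0.15 and -0.06 ± 0.19). Cdk6, a G1 kinase, was at 143 to 224 CPM in HSC and 577 to 705 in HPC, and Ccnd1 (cyclin D1) was at 8.06 to 10.9 against 45.3 to 60.4, though the age series gave -0.12 ± 0.20 for Ccnd1.

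Genes of replication and of mitosis are known for different promoter elements, E2F sites for the former and the CHR element with CCAAT boxes for the latter. The 250 bases before the start of 4 list genes called lower in both wild type comparisons are shown, chosen for holding these letters after their values were seen. They are RefSeq sequences on GRCm38.p6, 5′ to 3′ on the strand of the gene, with E2F-type letters (TTTCCCGC, TTTCGCGC, TTTGCCGC or TTTGGCGC, either strand) in capitals for Cdc6 and Mcm5, and CHR (TTTGAA) and CCAAT letters, either strand, in capitals for Cdk1 and Mki67.
Cdc6, a replication licensing factor, chr11:98907901-98908150, plus strand: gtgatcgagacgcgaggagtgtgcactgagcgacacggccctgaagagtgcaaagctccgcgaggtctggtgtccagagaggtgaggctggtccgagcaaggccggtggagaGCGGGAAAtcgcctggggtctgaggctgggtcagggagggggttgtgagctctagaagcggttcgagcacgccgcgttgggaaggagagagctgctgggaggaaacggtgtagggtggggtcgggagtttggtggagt
Mcm5, a subunit of the replicative helicase, chr8:75109259-75109508, plus strand: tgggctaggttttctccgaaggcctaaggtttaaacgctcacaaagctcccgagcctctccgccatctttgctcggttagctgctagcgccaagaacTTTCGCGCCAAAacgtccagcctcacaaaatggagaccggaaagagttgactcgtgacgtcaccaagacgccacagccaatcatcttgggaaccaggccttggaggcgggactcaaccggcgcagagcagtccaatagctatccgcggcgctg
Cdk1, chr10:69352913-69353162, minus strand: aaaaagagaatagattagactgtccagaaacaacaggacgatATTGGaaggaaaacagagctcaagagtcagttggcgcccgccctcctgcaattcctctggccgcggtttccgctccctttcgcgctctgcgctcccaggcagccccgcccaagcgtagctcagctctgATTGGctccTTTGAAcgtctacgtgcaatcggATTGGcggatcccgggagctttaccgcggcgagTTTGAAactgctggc
Mki67, the Ki-67 antigen of dividing cells, chr7:135716380-135716629, minus strand: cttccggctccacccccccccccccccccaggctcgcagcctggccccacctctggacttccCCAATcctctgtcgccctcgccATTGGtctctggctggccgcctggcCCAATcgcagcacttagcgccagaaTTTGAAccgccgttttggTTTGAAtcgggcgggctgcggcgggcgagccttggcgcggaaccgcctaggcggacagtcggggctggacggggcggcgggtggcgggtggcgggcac

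The capitals of Mcm5 join 2 overlapping matches on opposite strands, and Cdk1 and Mki67 each held 2 CHR and 3 CCAAT matches. The Cdk1 sequence also holds E2F-type letters, left in lower case. Among replication genes with an entry (21 of 26), 5 held E2F-type letters (23.8%), against 1.91% of 27025 genes with an entry. CCAAT letters were in 14 of the 21 (66.7%), against 34.5%, and both CHR and CCAAT letters in 2. Among G2/M genes (18 of 22 with an entry), 7 held both CHR and CCAAT letters (38.9%), against 5.73%, and 1 held E2F-type letters (5.56%). A match is a description of letters and does not show binding. Cdc6, Mcm5 and Mki67 were lower in HSC, with fold changes of -1.09 ± 0.30, -0.79 ± 0.24 and -1.20 ± 0.26. Mcm5 CPM were 254, 265, 258, 582 and 481 in HSC and 548 to 739 in HPC, so HSC libraries 4 and 5 came close to or within the HPC range.

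Ribosome biogenesis genes were more often lower. Of 20 ribosome biogenesis genes, 11 were lower and 4 higher, and 9 were called lower in both wild type comparisons, 0 higher and 3 in opposite directions. Of the 20, 3 had a P14 table difference over 1. Myc, which drives cell growth, was at 175 to 218 CPM in HSC and 371 to 588 in HPC (-1.22 ± 0.13). Ncl (nucleolin) was at 644 to 914 against 1560 to 1970 CPM, and Nolc1, a nucleolar chaperone, was lower, with a fold change of -1.16 ± 0.13. Of 28 nuclear genes of oxidative phosphorylation, 18 were lower and 2 higher, with 11 lower in both wild type comparisons and 2 in opposite directions. A P14 table difference over 1 was found for 2 of the 28, and with that difference subtracted 10 were lower and 0 higher. Uqcrc2, of complex III, was lower, with a fold change of -0.76 ± 0.09 (age series -0.40 ± 0.10), while Atp5b, of the ATP synthase, was lower, with a fold change of -0.94 ± 0.09 here and did not pass the test in the age series (0.13 ± 0.13). Cycs (cytochrome c) was called higher here and lower in the age series (adjusted p = 0.0473), a call lost without any 1 of 7 age series libraries, with a P14 table difference of 5.26.

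Glycolysis enzymes were mostly higher in the second table, but not in the age series. Of 15 enzymes, 13 were higher in the second table and 0 lower (median 0.58), while in the age series 3 were higher and 6 lower (median -0.32). Of the 15, 4 were called in opposite directions and 3 were higher in both, namely Hk1, Pfkl and the glucose transporter Slc2a1. Gapdh CPM were 1410, 1210, 1240, 1750 and 1690 in HSC and 35, 27.1, 33.4 and 24.5 in HPC, a fold change of 5.60 ± 0.18, while the age series gave -1.36 ± 0.16. Pgk1 was higher by 3.52 ± 0.14 here and stood at -0.66 ± 0.15 there, and Pkm was called higher here and stood at -0.56 ± 0.12 there. Eno1 was higher by 2.17 ± 0.20, and its age series value of -0.37 ± 0.16 did not pass the test. A P14 table difference over 1 was found for 5 of the 15 enzymes, Gapdh (6.35), Pgk1 (4.24), Eno1 (2.62) and Pkm (1.08) among them. Of 17 genes of cholesterol synthesis, 9 were higher and 0 lower here and 5 were higher in the age series, and 2 of 17 had a P14 table difference over 1. Without HSC libraries 4 and 5 the count here was 13. Insig1, a sterol sensor partner, was higher in both (0.97 ± 0.24 and 1.09 ± 0.24), whereas Idi1, an isomerase of the pathway, was higher in the second table (3.45 ± 0.26) and did not pass in the age series (-0.12 ± 0.23).

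**Figure D4:**
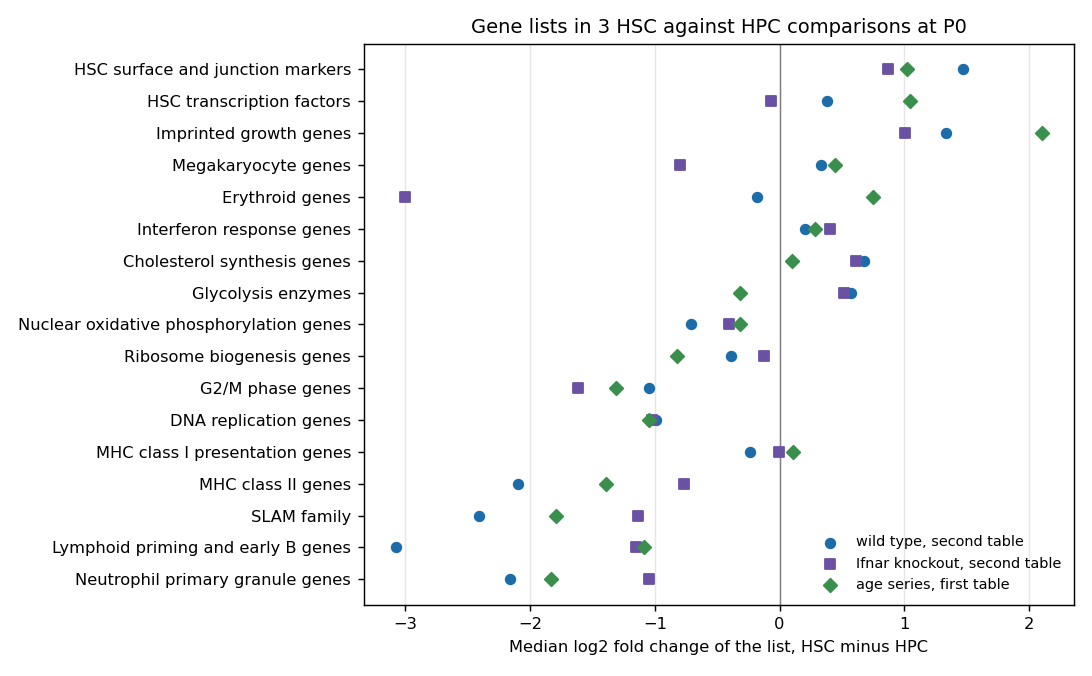
Median log2 fold change, HSC minus HPC, of 17 gene lists at P0 in wild type (blue circles) and Ifnar -/- libraries (purple squares) of the second table and in the age series of the first table (green diamonds). Lymphoid, granule, MHC class II and cell division lists lay below 0 in the 3 comparisons, while glycolysis lay at 0.58 and 0.51 in the second table and at -0.32 in the age series.

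Interferon response genes were called higher about as often as all genes and lower less often, a balance that changed without 2 libraries. Of 58 tested, 19 were higher and 5 lower (median 0.21), where 29.9% of all genes were higher and 26.3% lower. In the age series 16 of 55 were higher and 4 lower, where 20.8% of all genes were higher and 20.4% lower. A P14 table difference over 1 was found for 7 of the 58. Summed, the 58 genes were at 9510, 8530, 8190, 11700 and 13900 CPM in HSC and at 10200, 7990, 10800 and 8180 in HPC, so the groups overlapped. Without HSC libraries 4 and 5, 16 were higher and 16 lower (median -0.09). Ifitm1, a membrane protein that restricts viruses, was at 1500 to 1770 CPM in HSC and 787 to 939 in HPC (0.95 ± 0.10, age series 0.84 ± 0.11). Slfn2, a Schlafen gene tied to quiescence of immune cells, was at 191, 188, 189, 334 and 281 CPM against 56.3 to 97.3. Ifi27, a small mitochondrial protein, was lower at 65.7 to 122 CPM against 214 to 312. Gbp7, a guanylate-binding protein, was higher by 0.80 ± 0.10, with an age series value of 0.11 ± 0.12 that did not pass, and Epsti1 was lower, with a fold change of -0.87 ± 0.12 here and called higher there (0.49 ± 0.16), a call lost without HSC library 2 or 3 or HPC library 3 or 4 of that series (adjusted p of 0.0603 to 0.0804).

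Antigen presentation by MHC class II was lower in HSC. Of 10 genes tested, 9 were lower and 1 higher (median -2.10), and 4 of 9 were called lower in both wild type comparisons. Of the 10, 0 had a P14 table difference over 1. H2-Ab1, a class II chain, was at 2.72, 1.04, 1.81, 0.778 and 1.72 CPM in HSC and 54.3, 75.6, 122 and 37 in HPC. Cd74, the invariant chain, was at 36.8 to 89.3 CPM against 212, 245, 520 and 131, and HPC library 3 was the highest for both genes. The peptide loading genes H2-DMa and H2-Ob were lower, with fold changes of -2.01 ± 0.14 and -2.95 ± 0.20. Of 15 class I presentation genes, 7 were lower and 1 higher, and in the age series 6 were lower and 5 higher. Of the 15, 1 had a P14 table difference over 1. Psmb8, an immunoproteasome subunit, was at 91.9 to 140 CPM against 349 to 463, with an age series value of -0.07 ± 0.14, and Tap2, a peptide transporter, was lower here (-0.78 ± 0.11) and higher there (0.72 ± 0.16). Levels of H2, Ly6, Gbp, Slfn and tryptase genes are uncertain where reads could be split between close relatives.

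Signaling genes were mixed. Cish and Socs2, feedback inhibitors induced by STAT5, were higher by 1.54 ± 0.13 and 1.73 ± 0.12, with 1.36 ± 0.21 and 1.75 ± 0.27 in the age series, and 4 of 9 STAT5 targets were higher and 2 lower. In the age series 5 of 8 were higher and 0 lower. Of 10 MAPK feedback genes, 7 were lower and 1 higher, but 0 of 7 were called in the age series by limma. Spred1 and Spry2, inhibitors of the Ras pathway, had fold changes of -1.32 ± 0.16 and -1.23 ± 0.19 here and 0.21 ± 0.17 and 0.31 ± 0.16 there. Of 17 immediate early genes, 7 were higher and 5 lower, and in the age series 5 of 9 were higher and 0 lower. Of the 17, 3 had a P14 table difference over 1. Zfp36, which destabilizes cytokine mRNAs, was higher in both (1.27 ± 0.13 and 1.05 ± 0.17), and Ier2 was lower here (-0.86 ± 0.18) and higher in the age series (2.38 ± 0.27). Id2, an inhibitor of lineage factors, was lower at 17.5 to 42.1 CPM against 166 to 246, and lower in the age series too (-1.73, adjusted p = 0.0167), a call lost there without HSC library 2 or 3 (adjusted p = 0.058 and 0.0514). Id1 and Id3 were lower here (-0.41 and -1.04), but in the age series Id1 was higher (1.21) and Id3, at 0.37, did not pass the test.

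Homing and adhesion genes were more often lower, with 12 of 20 lower and 4 higher. The age series was more balanced, with 6 of 19 lower and 5 higher, and 4 genes were called lower in both wild type comparisons, 3 higher and 2 in opposite directions. With the P14 table difference subtracted, 5 of 20 were lower and 3 higher. Itgal, the alpha chain of LFA-1, had a fold change of -2.43 ± 0.17 here and -2.44 ± 0.21 in the age series. Selplg, the P-selectin ligand, was lower here (-1.31 ± 0.11) and higher in the age series (0.60 ± 0.16).

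Among genes without group overlap and with mean log2 CPM reaching 3, the largest differences in favor of HPC were found in both tables. Some genes outside this selection, such as Cst7 and Cma1, differed by more. The 10 genes selected were Mpo, BC035044, Bin1, Cd48, Adgrg3, H2-Ab1, Tifab, Tespa1, H2-Aa and Runx3. Of these, 9 were called lower in HSC of the age series as well. For H2-Aa the age series gave -2.80 (adjusted p = 0.0504). Bin1, a membrane-bending adaptor, was at 1.6, 1.61, 1.51, 0.657 and 1.44 CPM in HSC and 121, 125, 115 and 97.4 in HPC, with a P14 table difference of -0.02. Adgrg3, an adhesion receptor of myeloid cells, was lower in both tables (-5.69 ± 0.28 and, in the age series, -5.85 ± 0.47). Runx3, a factor of lymphocytes and dendritic cells, was at 2.03 to 3.59 CPM against 53.6 to 65.9. Tespa1, of lymphocyte receptor signaling, was at 1.31 to 5.49 against 95.5 to 182, and Tifab, an adaptor of innate immune signaling, was at 0.999 to 2.46 against 63.6 to 76.8.

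Markers of other cells were found in both groups. Hepatocyte markers (9 genes) summed to 15.6 to 23.9 CPM in HSC and 29.1 to 41.3 in HPC, stroma markers (8) to 18.6 to 27.8 and 50.9 to 86.5, T and NK cell markers (7) to 16.4 to 31.6 and 66.5 to 107, and neutrophil markers (8) to 11.1 to 20.8 and 7.4 to 14.7. Macrophage markers (10) summed to 69.9 to 136 and 130 to 153 CPM, and endothelial markers (8), some of which HSC express, to 317 to 506 and 561 to 599. Of 4 stroma markers tested, 2 were higher and 1 lower. Most of the HPC stroma sum was Pdgfrb, which was at 4.5 to 9.65 CPM in HSC and 45.2 to 80.4 in HPC and was lower in the age series too (-3.38 ± 0.22). The collagen gene Col1a2 was higher in HSC, at 3.41 to 11.3 CPM against 0.962 to 2.39, and so was Sparc, at 4.63 to 9.92 against 2.59 to 4.24. Most of the T and NK cell sum in HPC was Nkg7, at 62.1 to 104 CPM, while Cd3e, Cd8a and Ncr1 were listed at 0 in all 4 HPC libraries. Of 8 endothelial markers, 4 were higher and 2 lower, with Egfl7 at 127 to 271 CPM in HSC and 384 to 403 in HPC. Klrb1c, an NK cell receptor, was higher in HSC, at 12.1 to 24.9 CPM against 0.845 to 4.15. The part of such cells in the differences was not tested.

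The same contrast in Ifnar -/- libraries used the same 2 runs, so a difference between runs that is equal in both genotypes drops out of the difference of the 2 gaps. Ifnar1 RNA was at 64.9 to 72.1 CPM in Ifnar -/- HSC and 73.7 to 84.2 in Ifnar -/- HPC, against 55.1 to 70.3 and 53.6 to 77.2 in wild type. The labels do not say which part of which receptor gene is deleted, so this level does not check the genotype. The gap between HSC and HPC differed by genotype for 293 of 17191 genes (1.7%), higher in wild type for 175 (1.02%) and lower for 118 (0.686%). The genotypes also differed in sex-linked RNA. All 4 Ifnar -/- HPC libraries held Y-linked RNA (258 to 305 CPM) and little Xist (0.171 to 0.683 CPM), whereas wild type HPC libraries 1 and 3 held Y-linked RNA and no Xist and libraries 2 and 4 held Xist at 75.9 and 66.1 CPM. The part of sex in these differences was not tested. Without wild type HPC library 4 the counts were 360 and 229, without wild type HPC library 1 they were 108 and 76, and without Ifnar -/- HPC library 2 they were 111 and 76. Of 14855 genes tested in both genotypes, 5656 (38.1%) were called in the same direction in both and 36 (0.242%) in opposite directions.

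Erythroid genes were prominent among genes whose gap differed. Of 20 erythroid genes tested, 9 had a higher HSC minus HPC gap in wild type and 0 a lower gap (median 2.29, against 0.003 over all genes). Only 16 of the list were tested in wild type alone, so some passed the filter on low counts through the Ifnar -/- libraries. Members that passed only through Ifnar -/- HPC, where they were high, could give a gap of this sign only. The count and the median may therefore be partly set by the filter. The summed level of the 21 erythroid genes was 2860 to 3330 CPM in wild type HPC and 3600 to 4090 in Ifnar -/- HPC. Most of each sum was Car2, which averaged 2610 and 2870 CPM in these groups and 2470 in wild type HSC. The part of erythroid cells was not tested. Gata1 was at 23.3, 31.8, 16 and 21.3 CPM in wild type HPC and 70.7, 94.7, 93.7 and 34.6 in Ifnar -/- HPC, and its gap was higher in wild type by 3.40 ± 0.49 (adjusted p = 0.000873). Rhag, a red cell membrane protein, was at 9.89 to 26.1 CPM in wild type HPC and 27 to 158 in Ifnar -/- HPC. Mfsd2b, a lipid transporter of red cells and platelets, was at 14.6 to 38.8 and 61.7 to 148. The endocytic protein Ehd3 was higher in HSC of wild type (1.96 ± 0.22) and lower in HSC of Ifnar -/- mice (-1.80 ± 0.31), and the gap differed by 3.75 ± 0.41.

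Stem cell surface genes also had wider gaps in wild type, with 8 of 25 higher and 0 lower. Slamf1 was at 20.2 to 37.9 CPM in Ifnar -/- HPC against 6.64 to 11.9 in wild type HPC, and its gap was wider by 1.74 ± 0.30 (adjusted p = 0.00339). Clca3a1, of the chloride channel regulator family, had a gap wider by 3.001 (SE 0.46). Genes with the opposite sign included 4 of 15 primary granule genes and 3 of 10 MHC class II genes, with 0 of either list higher. Mpo was at 1020 to 1610 CPM in wild type HPC and 281 to 335 in Ifnar -/- HPC, and its gap differed by -2.50 ± 0.26. Cd33 (a myeloid lectin), Pld4 (a nuclease of endosomes), Ccl9 (a chemokine) and Cd74 differed by -2.96 ± 0.35, -2.92 ± 0.36, -2.74 ± 0.32 and -2.58 ± 0.63. The Cd74 call (adjusted p = 0.0396) was lost in most fits that left out 1 library, with adjusted p of 0.0506 to 0.109 there. For Ccl9, wild type HPC were at 100 to 182 CPM and Ifnar -/- HPC at 25.6 to 38.6. Tpm3-rs7, a copy of a tropomyosin gene whose reads could be split with its parent, differed in HSC, at 14.8 to 22.2 CPM in wild type and 147 to 299 in Ifnar -/-. For interferon response genes, 0 of 58 gaps were higher and 1 was lower, and 9 were lower without wild type HSC libraries 4 and 5. A gap does not show the level. Isg15 averaged 69.1 CPM in HSC and 76.9 in HPC of wild type, and 4.32 and 2.09 in Ifnar -/-. Irf1 averaged 131 and 159 CPM in wild type and 137 and 128 in Ifnar -/-. In Ifnar -/- libraries alone, 52 of the 58 genes passed the filter on low counts.

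**Figure D5:**
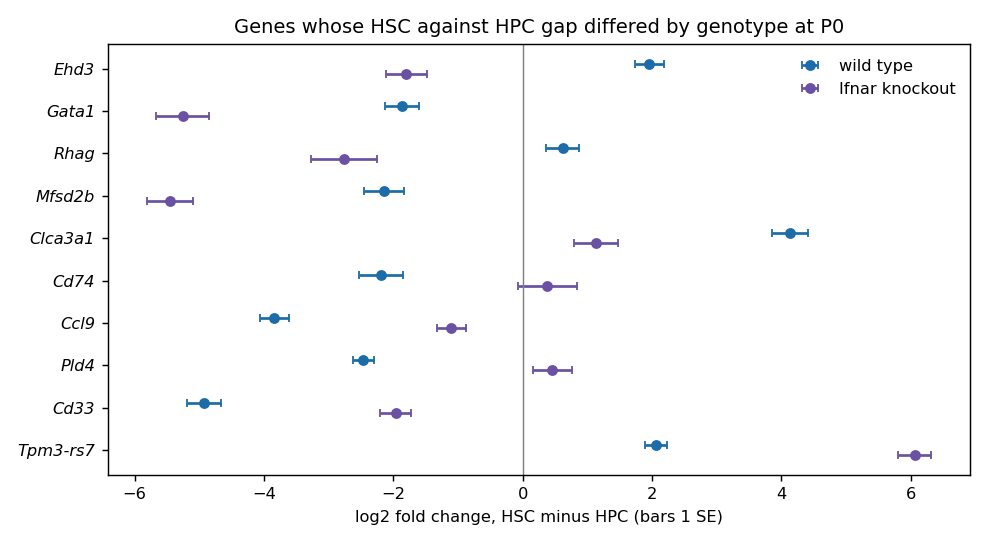
Fitted log2 fold changes, HSC minus HPC, with bars of 1 SE, in wild type (blue) and Ifnar -/- (purple) libraries at P0 for the 5 genes per direction with the largest difference between genotypes. Ehd3 lay at 1.96 in wild type and -1.80 in Ifnar -/-, Gata1 at -1.86 and -5.26, and Cd33 at -4.93 and -1.96.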

How the data were processed

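RNA was prepared with a Qiagen micro kit and a Clontech cDNA kit, per the labels' protocols. Alignment by the authors used STAR 3.0.4 and counting used featureCounts 1.4.5, per the submitters' processing notes. Genome build, annotation and strand setting are not given in the sources used here. The deposited values of the second table, and of HPC in the first, were raw read counts per gene. The deposited values of age series HSC were RPKM (reads scaled to gene length and depth), although the table is named as counts. Whole reads were recovered for 25622 of 25622 detected genes, with 100% of values whole within 0.001 of a read, using exon lengths of GENCODE M21 for 16649 genes and lengths found from the values for 8973. The 2 rows that are not mouse genes and 1 column of values of no sample in the labels were not used. Of 40481 identifiers in the second table, 40254 matched a symbol.

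For the deposited counts the test was the quasi-likelihood one of edgeR 4.0.16 in R 4.3.3 (TMM factors, its default filter on low counts, two-sided), with Benjamini-Hochberg adjustment over all genes tested and calls at an adjusted p under 0.05. A log2 fold change is HSC minus HPC, and CPM are TMM-scaled. The age series, planned for counts, went to limma 3.58.1, with a robust trend, as log2 of RPKM (after TMM scaling) plus a pseudocount of 0.5. HPC counts were brought to RPKM with these lengths, and genes needed over 1 RPKM in 4 or more libraries. Folds on that scale understate changes of low genes. Scripts were tested on simulated data. The labels did not say whether replicate numbers pair libraries, and the main tests did not pair them. No 2 libraries were alike within counting noise.

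The comparison, the gene lists and the markers were chosen with earlier results of these data known. The rule named the 10 genes per direction of largest called change whose groups did not overlap and whose mean log2 CPM reached 3, up to 5 called genes per list, 11 fixed genes, and 5 genes per direction for the difference between genotypes. Predicted genes, pseudogenes, globins and immunoglobulins were left out of the first part. Intervals and floors (3 reads) cover counting error only. Alternatives were other normalizations, filters and tests, thinning to equal depth, gene length offsets, leaving out libraries, and, chosen after seeing the data, those built on the P14 tables. The promoter genes Cdc6, Mcm5 and Mki67, and genes named singly for a marker list, were chosen after their values were seen. Results for a few genes that the rule selected are not reported here.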

Additional observations from a re-analysis of the deposited data

Results flagged for a closer look

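In 118 genes named for this report, each group of 4 or 5 libraries was searched for a library far from the others, and 22 of 236 groups held one, where chance gives about 1 in 20 for independent groups. These groups reuse the same 9 libraries and are not independent, so the count is no test of an excess. HSC library 4 was the lowest of its group for Flt3 (164 CPM), Il12a (9.24), Serpinb1a (21.7), Dlk1 (10.7), Itgal (14.1) and Bin1 (0.657), and the highest for Mpo (10.4), Hmga1 (448) and Ebf1 (0.997). HSC library 5 was the highest for Ccnd1 (10.9 CPM) and Tpsb2 (0.0232, which is 1 read), HSC library 3 for Prdm16 (71.1) and HSC library 2 for Car1 (0.286). HPC library 4 was the highest for Ifnar1 (77 CPM), Prdm16 (29.3), Tpsb2 (2820) and Cdc6 (163), and the lowest for Tfr2 (40.4) and H2-DMa (177). HPC library 3 was the highest for Hmga2 (210 CPM) and the lowest for Clca3a1 (1.26), and HPC library 2 was the lowest for Pkm (1040).

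The gap between HSC and HPC differed between wild type and Ifnar -/- libraries, by the edgeR test of the difference itself, for 33 of these genes. The difference (log2, wild type minus Ifnar -/-) was positive for Slamf1 (1.74), Mllt3 (0.93), Hoxb5 (1.91), Ctnnal1 (1.02), Esam (0.85), Tie1 (1.08), Vwf (2.01), Epor (2.56), Gata1 (3.40), Tfr2 (0.84), Grb10 (1.46), Socs2 (1.27), Ehd3 (3.75), Rhag (3.37), Mfsd2b (3.30) and Clca3a1 (3.001). It was negative for Cd48 (-1.31), Mpo (-2.50), Cd52 (-2.09), Satb1 (-0.84), Irf8 (-1.78), Cebpa (-3.03), Cd74 (-2.58), H2-DMa (-1.10), Hmga2 (-0.76), Id2 (-1.32), Bin1 (-1.21), BC035044 (-2.29), Runx3 (-1.39), Tpm3-rs7 (-4.00), Cd33 (-2.96), Pld4 (-2.92) and Ccl9 (-2.74). The calls for Bin1, Cd48, Cd74, Cebpa, Grb10, Hmga2, Hoxb5, Id2, Satb1 and Tfr2 were lost in 2 or more of the fits that left out 1 library.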

How the results depend on the processing

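Counts of genes called stayed within 1.5 times of those reported, except as follows. Of genes within 1 log2 unit between the tables at P14, 3172 were higher in HSC, and with the P14 table difference subtracted from the contrast, 1857 were higher and 2168 lower. That subtraction also turned the sign of Slamf1 (-0.155), Epor (-0.162), Hmga1 (-1.079), Gapdh (-0.734), Pgk1 (-0.711), Eno1 (-0.442), Pkm (-0.066), Cycs (-2.404), Actg1 (-1.848), Ehd3 (-0.544), Rhag (-1.076), Clca3a1 (-3.917) and Tpm3-rs7 (-3.325). It ended the call, with the sign kept, of Kit (1.543), Dlk1 (6.458), Ppp1ca (1.819), Rps6 (1.565), Cd74 (-1.791), Socs2 (0.829), Mcm5 (-0.682), Atp5b (-0.621), Mcm6 (-0.594), Flt3 (-0.527), Ifnar2 (-0.497), Gbp7 (0.454), Tap2 (-0.447), Igf2bp2 (0.429), Spry2 (-0.33), Mki67 (-0.286), Cdkn1c (0.281), Ifitm1 (0.161) and Ier2 (-0.078). The value of Kit was above the 0.907 reported. The subtraction takes in any difference between the P14 groups themselves. For the difference between genotypes, DESeq2 called 429 genes higher and 318 lower, and leaving out 1 library gave 108 to 360 higher and 76 to 229 lower. Leaving out 1 library gave 4146 to 4794 higher and 3908 to 4292 lower in wild type, 3083 to 3704 and 2753 to 3230 in Ifnar -/-, and 1922 to 2176 and 1729 to 2345 in the age series. The labels did not say whether replicate numbers mark shared animals. Same-numbered libraries correlated at -0.108 to 0.001 in wild type, 0.034 to 0.15 in Ifnar -/- and -0.225 to 0.15 in the age series. With the replicate block, 4247 genes were higher and 3826 lower in wild type, 3972 and 3640 in Ifnar -/-, 2156 and 2145 in the age series, and 175 and 114 differed by genotype. The edgeR test on recovered reads of the age series called 2733 higher and 2294 lower. With no filter on low counts the median of all genes was 0.322. HPC depth limits genes near 0, where a few reads decide a fold.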

Other observations

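Of the lists not described above, 13 genes of CDK inhibitors and G1 regulators held 3 higher and 7 lower in HSC, and 13 Hoxa and Hoxb genes held 2 higher and 1 lower. For 9 hepatocyte markers the counts were 0 higher and 2 lower, 10 macrophage markers 1 higher and 2 lower, 8 endothelial markers 4 higher and 2 lower, and 3 neutrophil markers 1 higher and 0 lower. Of 4 B cell markers tested, 4 were lower, though those near 0 in HSC, such as Ebf1, passed the filter on low counts through HPC alone. Of 4 stroma markers tested, 2 were higher and 1 lower, and of 2 T and NK cell markers 1 was higher and 1 lower. Across the P0 libraries of the second table, 51 genes were listed at 0 in all HPC libraries while above 1 CPM on average in HSC, and 21 genes were the reverse.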
